A study of Mus musculus with 23 samples.

Results

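Among 11 pools of heated mouse embryos, 4 had a deposited Hspa1a intensity above 20 and 7 had one at or below 20. The 2 classes were chosen by that measured value, so they are a readout and not a treatment. The whole series holds 23 arrays. Every high pool was set against every low pool over all probes other than those of Hspa1a and Hspa1b. A p-value below therefore says only that a probe moved with the Hspa1a class over these 11 pools.

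The embryos came from crosses of p53 heterozygous mice, were taken at day 8.5, and were bathed for 10 minutes at 38 °C as controls or at 43 °C for heat shock. Whole embryos of like genotype and bath, 3 to 7 of them, were pooled for each RNA sample and measured on a 1-colour CodeLink array. The groups were p53 +/+, p53 +/- and p53 -/- pools, lettered A to D, with 4 pools for each genotype in the control bath. In the 43 °C bath there were 4 p53 +/+, 4 p53 +/- and 3 p53 -/- pools, and no 4th p53 -/- heat pool is among the arrays. All groups come from the same kind of cross, and the p53 allele is a germline one carried by every cell of a p53 -/- embryo. The labels call the pools biological replicates but name no litter, and a p-value measures only the spread among them. The targeted gene, Trp53, had no probe under that symbol among those tested and could not serve to check the genotypes.

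Genotype was mixed into the split. The high class held 3 p53 +/+ pools (A, C and D), 0 p53 +/- pools and 1 p53 -/- pool (B). The low class held 1 p53 +/+ pool (B), all 4 p53 +/- pools and 2 p53 -/- pools (A and C). A gene that depends on p53 can thus differ between the classes through genotype alone. For this reason differences were computed as 4 pools against 7 and again with genotype as a term in the model. With the genotype term the difference rests on p53 +/+ A, C and D against B and on p53 -/- B against A and C, while the p53 +/- pools inform the spread.

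Heat unfolds proteins, and the transcription factor HSF1 answers by binding heat shock elements, inverted repeats of a short unit, in the promoters of chaperone genes. Hspa1a and Hspa1b encode the inducible Hsp70 chaperones, near-identical neighbours that are almost silent in unstressed cells and are among the most strongly induced genes after heat. The response is transient, and in the early embryo it becomes inducible at a defined stage of development. p53, a transcription factor stabilised by stress, controls a separate set of genes for cell cycle arrest and apoptosis, and early postimplantation embryos are sensitive to its activity.

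The sequences just before the transcription start are shown for the genes that define the classes and for 3 genes described later. They are 250 bases each from RefSeq (GRCm38.p6), written 5′ to 3′ on the gene's strand. Capitals mark the paired heat shock units GAANNTTC or TTCNNGAA, each of which reads the same on both strands.
Hspa1a, chr17:34972157-34972406, minus strand: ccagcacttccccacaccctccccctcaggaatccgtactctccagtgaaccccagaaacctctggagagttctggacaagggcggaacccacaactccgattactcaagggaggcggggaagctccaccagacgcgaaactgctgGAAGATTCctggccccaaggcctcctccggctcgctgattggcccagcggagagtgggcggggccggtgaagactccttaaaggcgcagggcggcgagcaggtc
Hspa1b, chr17:34959239-34959488, minus strand: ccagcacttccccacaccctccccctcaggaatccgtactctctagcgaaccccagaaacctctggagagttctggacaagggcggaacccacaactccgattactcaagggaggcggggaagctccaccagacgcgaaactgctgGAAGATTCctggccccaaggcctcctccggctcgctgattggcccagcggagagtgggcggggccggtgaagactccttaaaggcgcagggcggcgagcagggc
Hspb1, chr5:135887669-135887918, plus strand: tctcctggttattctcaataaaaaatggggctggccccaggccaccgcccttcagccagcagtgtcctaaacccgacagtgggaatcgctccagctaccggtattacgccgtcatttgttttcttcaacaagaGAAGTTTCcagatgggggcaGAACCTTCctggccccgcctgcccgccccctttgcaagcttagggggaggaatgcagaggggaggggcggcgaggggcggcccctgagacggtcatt
Zfand2a, chr5:139484492-139484741, minus strand: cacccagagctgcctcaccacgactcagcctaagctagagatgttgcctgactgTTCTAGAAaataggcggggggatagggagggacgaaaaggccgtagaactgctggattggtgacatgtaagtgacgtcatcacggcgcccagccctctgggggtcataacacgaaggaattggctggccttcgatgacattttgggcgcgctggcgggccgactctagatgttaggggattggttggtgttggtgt
Dusp8, chr7:142095285-142095534, minus strand: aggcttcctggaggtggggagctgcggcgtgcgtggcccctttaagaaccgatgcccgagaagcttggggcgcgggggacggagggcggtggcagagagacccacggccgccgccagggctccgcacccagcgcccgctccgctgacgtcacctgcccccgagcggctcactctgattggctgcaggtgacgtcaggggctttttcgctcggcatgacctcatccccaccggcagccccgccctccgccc
The Hspa1a and Hspa1b windows were identical at 247 of 250 bases, and each held 1 match, 104 bases before the start. Hspb1, a small heat shock protein, had 2 matches, the first 117 and the second 97 bases before the start. Zfand2a, a zinc finger protein of the proteasome induced by arsenite, had 1 match, and Dusp8 had none of these letters in the window. Of 32851 RefSeq promoter windows of this length 12.8% held a match, and 0.466% held a run of 3 units (GAANNTTCNNGAA or TTCNNGAANNTTC).

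The values that define the classes are a description with no test. Deposited Hspa1a was 63.9, 100, and 90.0 in p53 +/+ heat pools A, C and D and 121 in p53 -/- heat pool B. Among the low pools it was 0.873 in p53 +/+ B, 1.59, 1.51, 2.13 and 1.80 in p53 +/- A to D, and 1.72 and 2.17 in p53 -/- A and C. The threshold of 20 lies in a wide gap: the nearest pool above it had 63.9 and the nearest below it 2.17. The 12 control pools ran from 0.533 to 1.05, so p53 +/+ heat B was within the control range, while the other 6 low heat pools were above it. Controls and heat pools were processed differently by the authors, so this last comparison cannot be told apart from array processing. Hspa1b separated the same pools, with 82.1, 103 and 110 in p53 +/+ A, C and D and 97.5 in p53 -/- B, against 3.89 to 6.50 in the 7 low pools and 3.85 to 5.60 in the controls. The probes of both genes may detect both transcripts, since the genes are near-identical copies, and the values cannot be assigned to 1 copy with certainty.

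**Figure D1:**
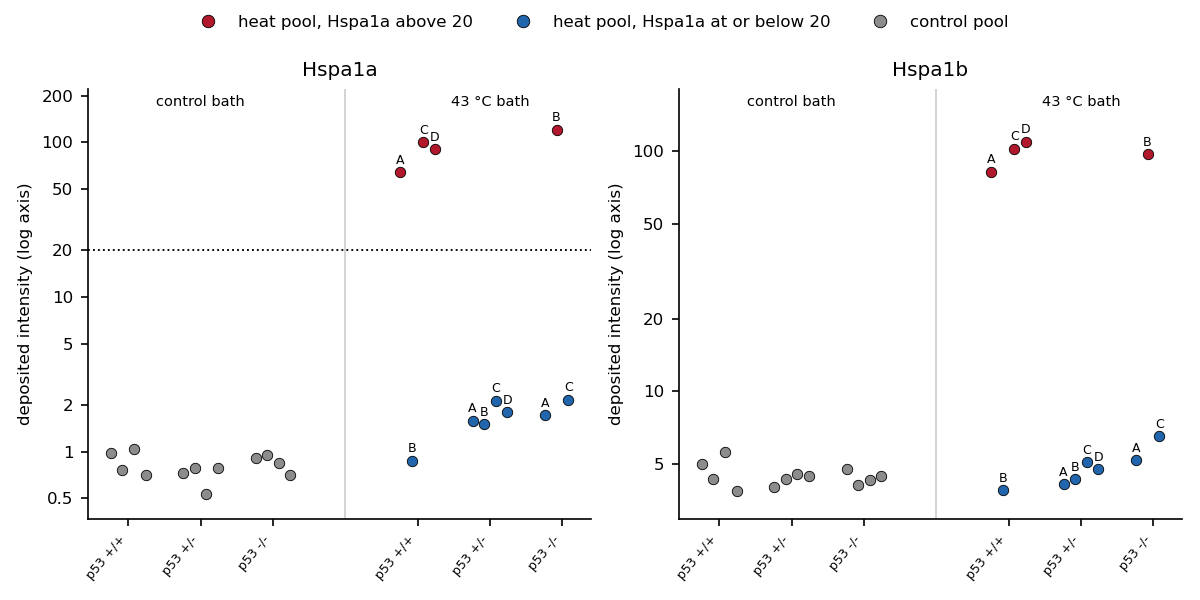
Deposited intensity of Hspa1a (left) and Hspa1b (right) in each of the 23 pools on a log axis, by bath and genotype; each point is 1 pool, letters name the heat pools, and the dotted line marks the threshold of 20. The 4 high pools lie at 63.9 to 121 for Hspa1a, and the other 7 heat pools at 0.873 to 2.17.

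Some genes stood above the control pools in both heat classes. Hspb1 was at 60.8 to 73.3 in the 7 low heat pools at 76.6 to 90.1 in the high pools and at 15.3 to 22 in the 11 control pools with a value. Tcte3, a dynein light chain, was at 8.23 to 11.1 in the low pools, at 8.67 to 11.5 in the high pools and at 0.909 to 1.55 in the controls. Mt1, a metallothionein, was at 52.0 to 74.7 in the low pools, at 44.2 to 71.2 in the high pools and at 20.3 to 35.1 in the controls. For these 3 genes both classes lay above all controls with a value. The classes overlapped for Tcte3 and Mt1 and did not for Hspb1. Control arrays were put on the heat arrays' scale for this description only, and bath cannot be told apart from array processing.

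Outside the Hsp70 genes, few transcripts followed the class beyond the spread between pools. Of 22419 probes tested, 2 passed an adjusted p of 0.05 for high against low, both higher (0.00892% of those tested, limma with Benjamini-Hochberg adjustment). They belong to Dusp8 and Slc16a6. At an unadjusted p under 0.05 there were 1375 probes, 6.13% of those tested, 828 higher and 547 lower. With genotype as a term 0 probes passed (0%) by limma, and 827 had an unadjusted p under 0.05, 3.69% of those tested. Leaving out 1 pool changed the first count to 0 (without p53 +/+ D, p53 +/- A or p53 +/- C), 1 (p53 +/+ C or p53 -/- A), 5 (p53 +/+ A) or 8 (p53 -/- B). It changed the count with the genotype term to 84 without p53 +/+ B, where the difference rests on the p53 -/- pools alone, and to 3 without p53 -/- B. Without p53 -/- B all high pools are p53 +/+, and all low pools but 1 are p53 +/- or p53 -/-. The 8 calls for high against low then cannot be told apart from genotype. A simple count without a model gave 47 of 12820 genes whose 4 high pools all lay above all 7 low pools (0.367%) and 25 whose high pools all lay below (0.195%). The 47 differed by 0.17 to 1.53 on the log2 scale with a median of 0.44, and non-overlap requires each to be higher within p53 +/+ and within p53 -/- pools too. The 25 differed by -0.43 to -0.12. Without p53 +/+ A or p53 -/- B the counts were 192 and 190 above and 110 and 241 below.

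Dusp8 encodes a phosphatase that inactivates the stress-activated MAP kinases JNK and p38. Its probe read 2.03, 4.10 and 3.02 in p53 +/+ A, C and D and 2.60 in p53 -/- B. The 7 low pools ran from 0.866 through a median of 1.04 to 1.13, and the controls from 0.958 to 1.44. The high pools overlapped neither the low heat pools nor the controls, and the low heat pools lay at the level of the controls. Dusp8 was higher by 1.49 ± 0.16 (log2 ± SE; 4 against 7 pools; adjusted p = 0.0136). The difference was 1.37 within p53 +/+ pools, 1.38 within p53 -/- pools and 1.38 ± 0.23 with the genotype term (adjusted p = 0.798, limma). A second, brighter Dusp8 probe differed by 0.39 ± 0.11 (adjusted p = 0.76), and its classes overlapped, at 1.87 to 2.34 against 1.42 to 1.91. The call was lost without p53 +/+ D (adjusted p = 0.125), p53 +/- A (0.0535) or p53 +/- C (0.0517), each with a difference near the one above.

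Slc16a6, a transporter of the monocarboxylate family, read 5.14, 6.10 and 5.38 in p53 +/+ A, C and D and 5.03 in p53 -/- B. The low pools ran from 2.11 through 2.74 to 3.20, and the controls from 1.36 through 2.57 to 3.91, so the high pools lay above all other pools. It was higher by 1.02 ± 0.13 (adjusted p = 0.0296), by 0.79 within p53 +/+ and 1.02 within p53 -/-, and by 0.90 ± 0.17 with the genotype term (adjusted p = 0.998, limma). Another probe of the gene differed by 0.52 ± 0.14 (adjusted p = 0.76). Leaving out any of p53 +/+ A, C or D, p53 +/- A or C, or p53 -/- A brought the adjusted p of Slc16a6 to between 0.0504 and 0.226. In whole embryos, a higher level in some cells and more cells of an expressing type cannot be told apart, here and for every gene below.

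**Figure D2:**
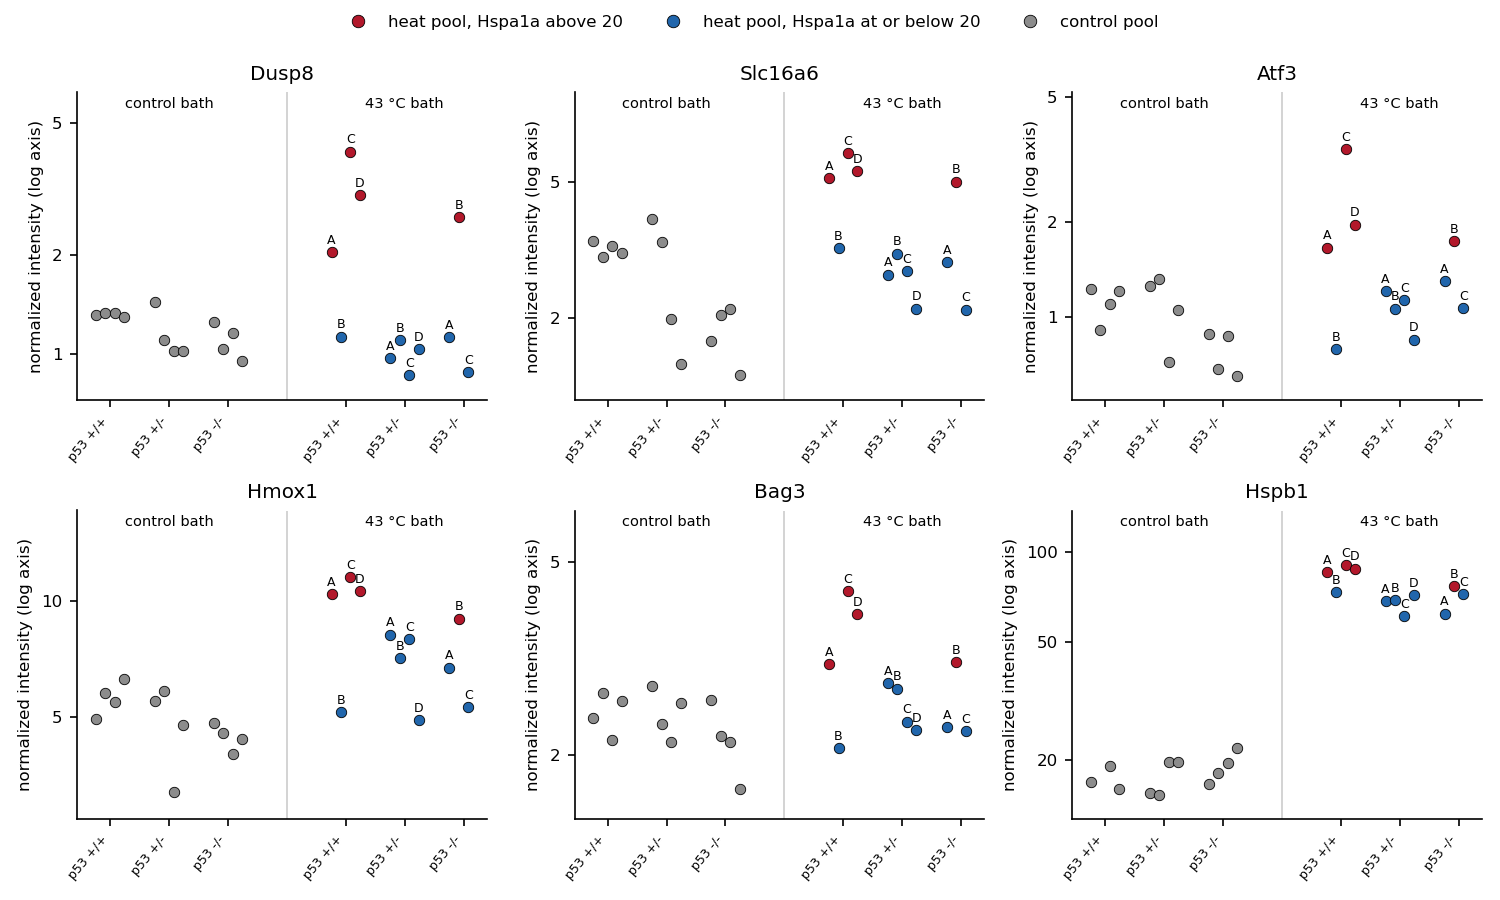
Normalized intensity of 6 genes in each pool on a log axis, by bath and genotype; each point is 1 pool, red for the 4 high heat pools, blue for the 7 low heat pools and grey for controls. Dusp8 is shown by its dimmer probe, the one that passed the test. Red points lie above all blue points for each gene, and only for Hspb1 do the blue points lie above all grey points as well.

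Outside the class-defining pair no chaperone gene on the lists below passed the test. Of 15 measured genes of the Hsp70 and Hsp110 system other than Hspa1a and Hspa1b, 0 passed the test, with a median log2 difference of -0.094 against -0.025 over all genes. The counts were also 0 among 13 genes of the Hsp90 system (median 0.061), 8 small heat shock proteins (median -0.022), 21 DnaJ co-chaperones (median 0.007) and 17 chaperonins and other HSF1 targets (median -0.041). With arrays centred on their medians instead, the Hsp90 and DnaJ medians were below 0, at -0.102 and -0.071, where the median over all genes was -0.092. Over the 74 genes of these 5 lists, 7 had an unadjusted p under 0.05 in the higher direction (9.46%) and 2 in the lower (2.7%). Over all 12820 genes these shares were 2.5% and 2.4%. Hsph1, the inducible Hsp110, differed by -0.14 ± 0.22 (adjusted p = 0.903), with 5.69, 3.01, 2.60 and 4.29 in p53 +/+ A, C, D and p53 -/- B and 3.08 to 5.55 in the low pools. Hsp90aa1, the inducible Hsp90, differed by -0.08 ± 0.09, Dnaja1 by 0.06 ± 0.07 (but -0.071 with arrays centred on their medians), Hspa5, the Hsp70 of the endoplasmic reticulum, by -0.09 ± 0.13, and Hspb8 by 0.17 ± 0.19. The classes overlapped for all 5 genes. Hspa8, the constitutive Hsp70, was not tested: its probe had a value on all 11 heat arrays but was above the 40th percentile of the array on 0 of them.

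Bag3, Hspb1 and Zfand2a had non-overlapping classes without passing the test. They are among the 47 genes above, 0.367% of all genes, and Zfand2a was named after its values were seen. Rln1, which is on none of the gene lists, was among the 47 too (0.69 ± 0.12, adjusted p = 0.283, limma). Bag3, which couples Hsp70 to the clearance of damaged proteins, read 3.09, 4.36, 3.91 and 3.11 in p53 +/+ A, C, D and p53 -/- B, and 2.07 to 2.82 in the low pools. Its difference was 0.59 ± 0.12 (adjusted p = 0.556), 0.86 within p53 +/+ and 0.46 within p53 -/-. Hspb1 read 85.4, 90.1, 87.9 and 76.6 in the same 4 pools, with a difference of 0.32 ± 0.08 (adjusted p = 0.621), which was 0.18 with arrays centred on their medians. In both classes Hspb1 lay far above the controls. Zfand2a read 2.13, 2.77, 2.18 and 3.01 against 1.28 to 1.99, a difference of 0.64 ± 0.15 (adjusted p = 0.617) that was 0.93 within p53 -/-. Dnajb1, the main Hsp40 partner of Hsp70, read 10.3, 14.8, 13.2 and 11.9 against 6.21 to 10.4, with 10.7 to 15.3 in the controls, and differed by 0.51 ± 0.15 (adjusted p = 0.76); p53 +/+ A overlapped the low pools.

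Transcription factors and other products of immediate early genes, which respond to stress or growth signals within minutes, came next. Of 22 measured immediate early genes 0 passed the test and 18 had a positive difference, against 42% of all genes. There were 8 with an unadjusted p under 0.05 in the higher direction (36.4%, against 2.5% of all genes) and 0 in the lower (2.4% of all genes). The list's median was 0.16, and 0.256 with the genotype term. It was 0.388 within p53 +/+ pools and 0.13 within p53 -/- pools. Around their own log2 means its genes averaged 0.047, 0.424, 0.181 and 0.135 in p53 +/+ A, C, D and p53 -/- B. In the low pools the averages ran from -0.29 in p53 +/+ B to 0.11 in p53 +/- B, so the classes overlapped. Atf3, a stress-induced repressor of the ATF family, read 1.66, 3.41, 1.96 and 1.74 in p53 +/+ A, C, D and p53 -/- B. The low pools ran from 0.789 to 1.30, close to the control range of 0.649 to 1.32. Atf3 differed by 1.01 ± 0.20 (adjusted p = 0.458), 1.50 within p53 +/+ and 0.57 within p53 -/-. Nr4a1, an orphan nuclear receptor, read 1.54, 2.18, 2.34 and 1.69 against 1.16 to 1.44 and differed by 0.53 ± 0.12 (adjusted p = 0.617). Both genes had classes that did not overlap.

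The matricellular gene Ccn1 differed by 0.77 ± 0.17 (adjusted p = 0.572) and Ier3, an early response gene linked to cell survival, by 1.05 ± 0.24 (adjusted p = 0.621). Each overlapped in 1 high pool or more: p53 +/+ A had 10.1 for Ccn1 where p53 +/- B had 10.6, and p53 +/+ A had 4.02 for Ier3 where p53 -/- C had 4.37. Fos differed by 0.21 ± 0.59 (adjusted p = 0.946), with 0.689 to 1.16 in the high pools and 0.262 to 3.19 in the low pools. The Egr1 probe was not tested, since it was above the 40th percentile on 3 arrays where 4 were required.

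Genes of the unfolded protein and integrated stress responses gave a similar picture. Of 21 endoplasmic reticulum stress genes 0 passed, with 5 at an unadjusted p under 0.05 in the higher direction (23.8%) and 0 in the lower. Of 23 amino acid and integrated stress response genes 0 passed, with 6 higher (26.1%) and 1 lower (4.35%), against 2.5% and 2.4% of all genes. Some genes, Ddit3 and Atf3 among them, are on more than 1 of the stress lists. The medians of these lists were 0.092 and 0.158, against -0.025 over all genes. With arrays centred on their medians the first was -0.006, where the median over all genes was -0.092. Ddit3, which encodes CHOP, a factor of endoplasmic reticulum stress, read 5.07, 7.16, 5.28 and 6.68 against 4.21 to 5.05 in the low pools, and differed by 0.38 ± 0.11 (adjusted p = 0.76). The lowest high pool and the highest low pool were nearly level. Ppp1r15a (GADD34), which restores translation after stress, differed by 0.53 ± 0.12 (adjusted p = 0.621) and the pseudokinase gene Trib3 by 0.45 ± 0.12 (adjusted p = 0.745), both with overlap. Hyou1, a chaperone of the endoplasmic reticulum, differed by 0.81 ± 0.30 (adjusted p = 0.776), with 1.45 to 5.29 in the low pools and 1.21 to 8.71 in the controls.

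Of 26 oxidative and metal stress genes 0 passed, and the median was -0.013. Hmox1, heme oxygenase, was the only gene of the list with non-overlapping classes, a trait that was part of a rule that named it. It read 10.4, 11.5, 10.6 and 9.01 in p53 +/+ A, C, D and p53 -/- B, 4.90 to 8.19 in the low pools and 3.20 to 6.28 in the controls. The difference was 0.71 ± 0.15 (adjusted p = 0.572), 1.07 within p53 +/+ and 0.59 within p53 -/-.

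Apart from the class-defining pair, p53 targets were the list with the largest median for 4 against 7 pools, 0.272. With the genotype term the yolk sac list (0.38) and the immediate early list (0.256) had larger medians than the p53 targets (0.191). The yolk sac value rests on few pools. Its genes averaged 0.304 around their own log2 means in p53 +/+ A, but -0.699 and -0.525 in C and D, near -0.651 in the low pool B. In p53 -/- pools the averages were 0.387 in B against 0.265 and -0.242 in A and C. Of 48 measured targets 0 passed, 40 had a positive difference, and 16 had an unadjusted p under 0.05 in the higher direction and 0 in the lower. The 16 are 33.3% of the list, against the 2.5% of all genes given above. Genotype is mixed into these p-values, which come from the fit without a genotype term. Around their own log2 means the targets averaged 0.298, 0.54 and 0.272 in p53 +/+ A, C and D and 0.001 in B. In p53 -/- pools they averaged -0.19 in the high pool B, -0.188 in A and -0.327 in C. The high p53 -/- pool thus lay below p53 +/+ B and below the p53 +/- pools, at -0.144 to -0.06. The median was 0.269 within p53 +/+ pools and 0.042 within p53 -/- pools. Since p53 +/+ B is the lone low pool of its genotype, the genotype-term median fell to the p53 -/- value of 0.042 when it was left out.

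Pmaip1 (Noxa), a BH3-only protein that promotes apoptosis, had classes that did not overlap. It read 21.7, 26.8 and 16.9 in p53 +/+ A, C and D, 7.99 in p53 +/+ B, 9.82 in p53 -/- B, 4.77 and 4.78 in p53 -/- A and C, and 5.87 to 7.24 in the 4 p53 +/- heat pools. The controls ran from 3.49 to 5.19. The difference was 1.53 ± 0.23 (adjusted p = 0.161) and 1.24 ± 0.17 with the genotype term (adjusted p = 0.435, limma), 1.42 within p53 +/+ and 1.04 within p53 -/-. Pmaip1 passed the test when arrays were only centred on their medians (adjusted p = 0.0408) or taken as deposited (0.0402), when arrays were weighted (0.00677), and without p53 -/- B (0.0111). In the last of these the high class holds p53 +/+ pools only.

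Cdkn1a, the cell cycle inhibitor p21, read 32.5, 32.4 and 21.1 in p53 +/+ A, C and D against 9.52 in p53 +/+ B, and 4.55 in p53 -/- B against 3.86 and 1.23 in p53 -/- A and C. The 4 p53 +/- heat pools had 1.91 to 5.35. The classes overlapped: the high p53 -/- pool lay below p53 +/+ B and below p53 +/- A, B and C at 4.85 to 5.35. Cdkn1a differed by 2.23 ± 0.60 (adjusted p = 0.76) and by 1.33 ± 0.47 with the genotype term (adjusted p = 0.998, limma). Phlda3, a repressor of Akt signalling, read 9.71, 11.7 and 8.16 in p53 +/+ A, C and D against 5.14 in B, and 3.10 in p53 -/- B against 2.45 and 2.20. It differed by 1.08 ± 0.33 (adjusted p = 0.776), 0.92 within p53 +/+ and 0.42 within p53 -/-.

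For some other targets the class difference was found in p53 +/+ pools and was smaller in p53 -/- pools, a contrast that did not pass the test for any of them. Bbc3 (Puma) differed by 0.97 within p53 +/+ and by -0.003 within p53 -/-. Sesn2, a stress-induced inhibitor of mTORC1, differed by 0.87 and 0.34, and Polk, a translesion DNA polymerase, by 0.92 and 0.23. Trp53inp1 went the other way, at 0.03 within p53 +/+ and 0.68 within p53 -/-. Mdm2 differed little, by 0.19 ± 0.36 for 4 against 7 pools. Ccng1, cyclin G1, followed genotype and not class. It read 11.1, 10.8, 13.6 and 9.09 in p53 +/+ A to D, 6.10 to 7.40 in p53 +/- pools, and 2.99, 1.23 and 1.39 in p53 -/- A to C. Its difference was 0.32 ± 0.66 for 4 against 7 pools and -0.32 ± 0.28 with the genotype term. 1700007K13Rik was also highest in p53 +/+ pools, at 5.94, 5.03, 4.54 and 2.54 in A to D. Unlike for Ccng1, its p53 +/- pools, at 1.19 to 1.79, lay near the p53 -/- pools, at 0.996 to 1.13. Rchy1, a ubiquitin ligase that acts on p53, was the other target with non-overlapping classes, at 8.68 to 10.7 against 6.74 to 7.85 (0.32 ± 0.08, adjusted p = 0.695). Without p53 -/- B, the lone high pool of its genotype, Bbc3 passed for high against low (1.08, adjusted p = 0.0304 against 0.76 with it) and so did Sesn2 (1.20, 0.0394 against 0.701). The high class then holds p53 +/+ pools only, so these 2 calls cannot be told apart from genotype.

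**Figure D3:**
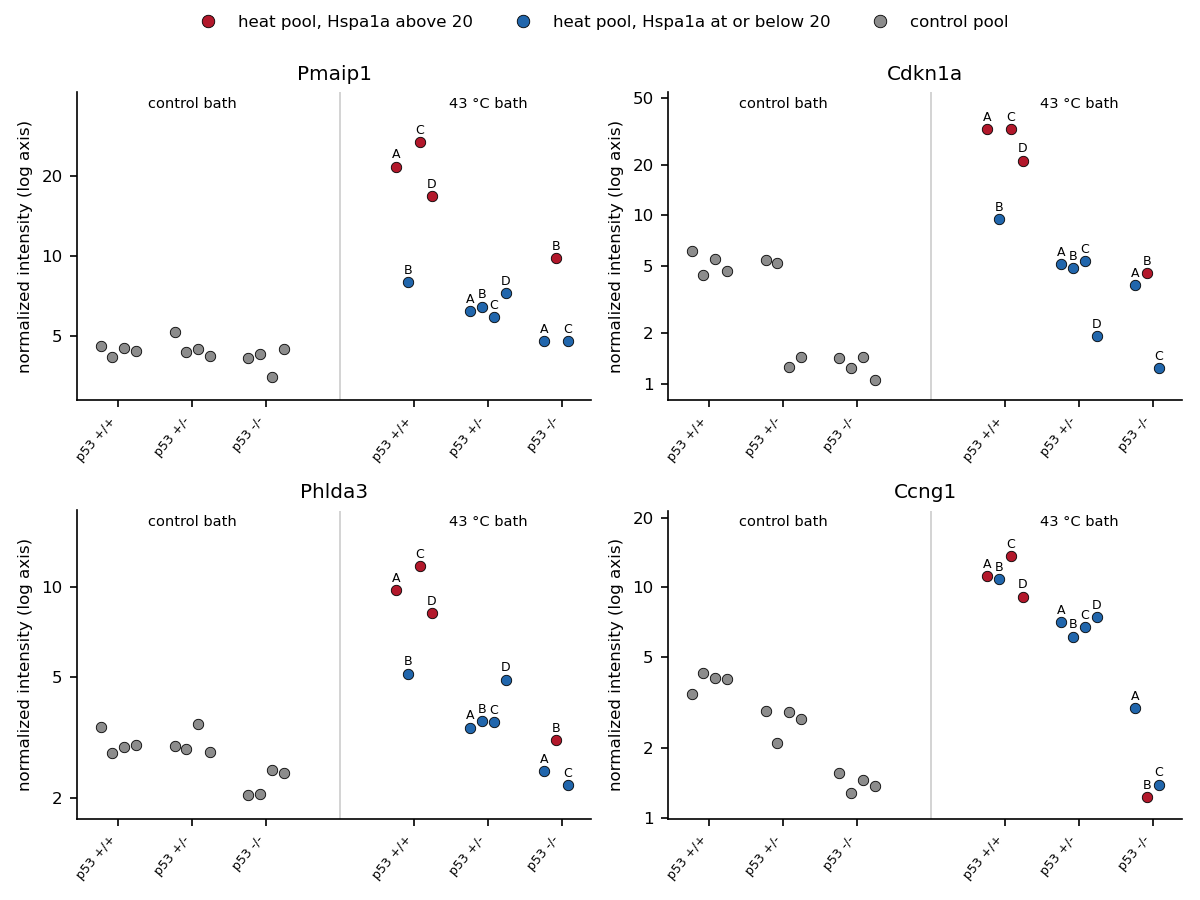
Normalized intensity of 4 p53 targets in each pool on a log axis, by bath and genotype; each point is 1 pool and letters name the heat pools. For Pmaip1 the high pools (red) lie above the low pools (blue) within p53 +/+ and within p53 -/-, and for Ccng1 the p53 +/+ heat pools lie together at 9.09 to 13.6, whatever their class.

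Hoxa5, a homeodomain factor of axial patterning, was the gene of smallest p in the Hox list. It read 28.9, 35.4, 34.2 and 32.7 in p53 +/+ A, C, D and p53 -/- B, 20.7 to 26.2 in the low pools and 22.7 to 34.8 in the controls. Its difference was 0.51 ± 0.08 (adjusted p = 0.212), 0.56 within p53 +/+ and 0.49 within p53 -/-. Of 28 Hox genes 0 passed, 4 had an unadjusted p under 0.05 in the higher direction (14.3%, against 2.5% of all genes) and 1 in the lower (3.57%, against 2.4%). The median was 0.081, and 0.191 with the genotype term. The summed Hox level was 194 to 211 in the high pools and 151 to 195 in the low pools. Klhdc7a, a kelch domain protein, read 2.03, 2.19, 2.13 and 1.45 against 0.944 to 1.37 and differed by 0.72 ± 0.13 (adjusted p = 0.337). Its adjusted p was 0.0397 (limma) without p53 -/- B, which leaves only p53 +/+ pools in the high class. Fam71f2 differed by 0.71 ± 0.17 (adjusted p = 0.621), 1.27 within p53 +/+ and 0.09 within p53 -/-.

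On the lower side 0 probes passed, and the differences were small. The named genes with all high pools below all low pools were 3110056K07Rik (-0.43 ± 0.12, adjusted p = 0.76), Napg (-0.38 ± 0.11), Stard9 (-0.37 ± 0.13), Gng2 (-0.36 ± 0.12), Rab43 (-0.34 ± 0.10) and Kif6 (-0.29 ± 0.09). Napg, gamma-SNAP of vesicle fusion, read 3.51, 2.77, 2.94 and 3.45 in p53 +/+ A, C, D and p53 -/- B and 3.71 to 4.84 in the low pools, while its second probe differed by -0.01. Among cell cycle genes Pcna, the sliding clamp of replication, differed by -0.36 ± 0.11 (adjusted p = 0.76), and 0 of 33 G1/S and 0 of 34 G2/M genes passed. Their medians were 0.015 and -0.071.

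**Figure D4:**
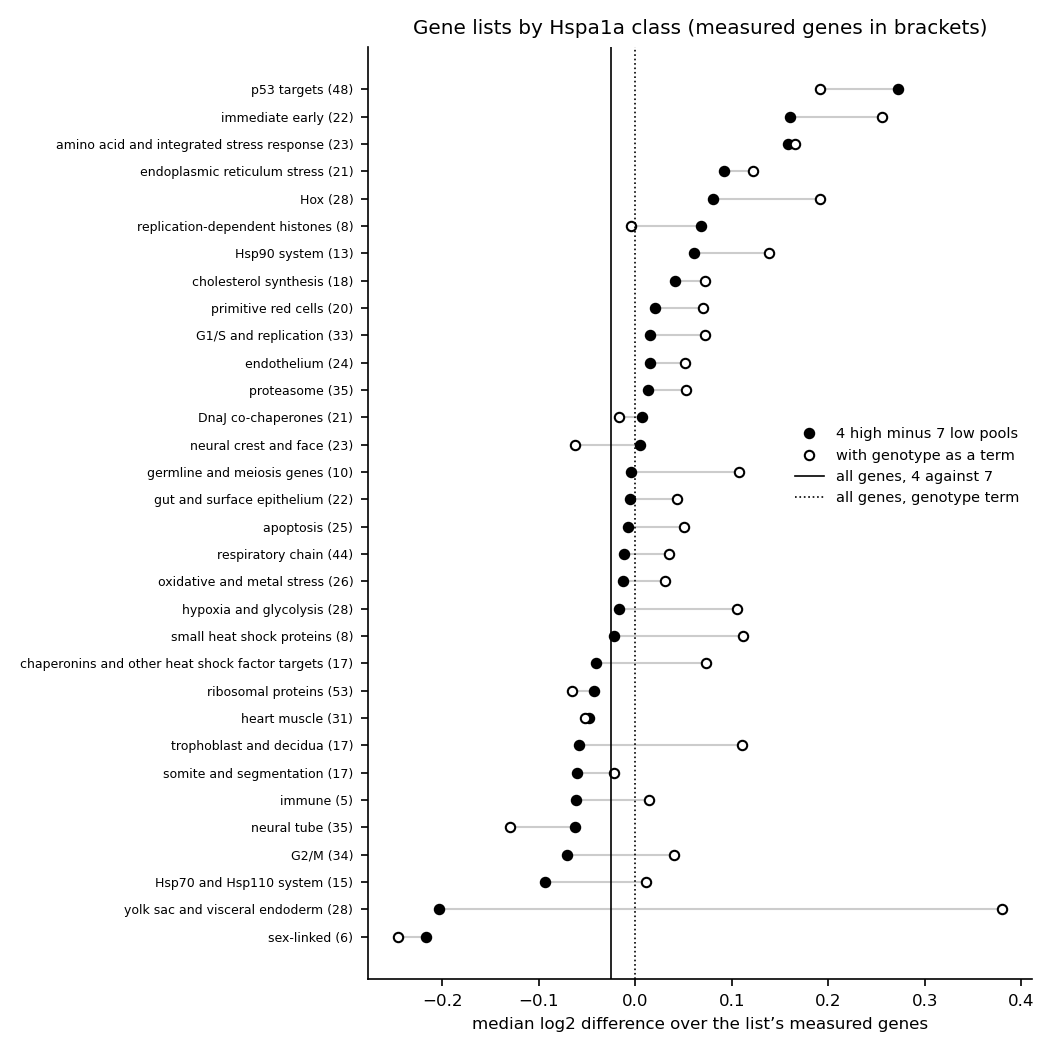
Median log2 difference between the 4 high and the 7 low pools over the measured genes of each list (filled) and with genotype as a term (open); vertical lines mark the medians over all genes, -0.025 and 0. p53 targets have the largest median for 4 against 7 pools (0.272), and the yolk sac list moves from -0.204 to 0.38 when genotype is a term.

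Markers of tissues did not separate the classes by their summed level in most lists, and their part in the results was not tested. Heart muscle genes summed to 442 to 593 in the high pools and 527 to 599 in the low pools, and neural tube genes to 219 to 232 and 217 to 252. Yolk sac and visceral endoderm genes, 28 measured, spread widely in both classes, from 257 to 535 and from 283 to 618, with Afp at 15.6 to 25.3 and 8.57 to 43.3. Trophoblast and decidua genes summed to 100 to 126 and 83.7 to 143. Within the trophoblast list Prl8a2 differed by -1.66 ± 0.69 (adjusted p = 0.776), at 0.211 to 0.588 in the high pools and 0.159 to 2.86 in the low pools. The small heat shock protein sum did not overlap, at 100.3 to 112 against 81.6 to 97.3, and is mostly Hspb1.

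Genes of the sex chromosomes marked 1 high pool. The Y-linked translation factor Eif2s3y read 0.162 in p53 -/- B and 4.35 to 13.4 in the other 10 heat pools. Y-linked Uty read 0.0956 in p53 -/- B and 0.286 to 1.54 elsewhere, and Kdm5d 2.69 in p53 -/- B and 3.22 to 4.78 elsewhere. Xist, the RNA of the inactive X chromosome, read 1.56 in that pool and 0.538 to 1.89 in the others. The sex of the embryos is not given in the labels, and its part in the class differences was not tested. An array measure also separated the classes: cells coded as missing numbered 129 to 140 on the high arrays and 144 to 203 on the low arrays. The highest value on an array overlapped, at 235 to 384 against 321 to 488. The part of these measures was not tested beyond a fit with the highest value as a covariate. That fit kept Dusp8 called and not Slc16a6, whose difference was 0.93 in it (adjusted p = 0.0726, limma) and 1.02 without the covariate. The first 2 principal components, with 46.6% and 19.5% of the variance, did not separate the classes. On the third, with 7.18%, the 4 high pools scored -0.5 to -24.9 and 6 of the 7 low pools 0.1 to 17.1, while p53 -/- C, a low pool, scored -3.8.

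Whether the class difference itself depended on genotype was tested as the p53 +/+ difference minus the p53 -/- difference. Of 22398 probes 5 passed (0.0223%), and 1954 had an unadjusted p under 0.05. The contrast rests on the single pools p53 +/+ B and p53 -/- B, each assumed to vary like the others. Slc25a29, a mitochondrial carrier, had a value of -3.62 ± 0.33 (adjusted p = 0.00925), and read 13.5 in p53 +/+ B against 0.886 to 1.25 in the other 10 heat pools. A probe of Zwint, a kinetochore protein, had 2.91 ± 0.33 (adjusted p = 0.042), and read 0.162 in p53 +/+ B against 1.07 to 1.62 elsewhere, while the gene's brightest probe showed no such drop (29.8 in that pool, 31.1 to 47.7 elsewhere). The call of the Zwint probe was lost in 13 of 17 alternatives, with adjusted p of 0.0535 to 1. Eif2s3y had 5.89 ± 0.47 (adjusted p = 0.00481), from the low value in p53 -/- B given above. The other 2 probes list no gene symbol. For each of these 3 genes 1 array stood apart from the other 10. With the replicate block none of the 3 was called (adjusted p = 0.377 for Eif2s3y, 1 for Slc25a29 and 1 for Zwint, limma), and without p53 +/+ C the adjusted p of Slc25a29 was 0.0505. Leaving out p53 +/+ C gave 2 calls, and leaving out p53 +/+ A, p53 +/- B, p53 +/- C or p53 -/- C gave 3.

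**Figure D5:**
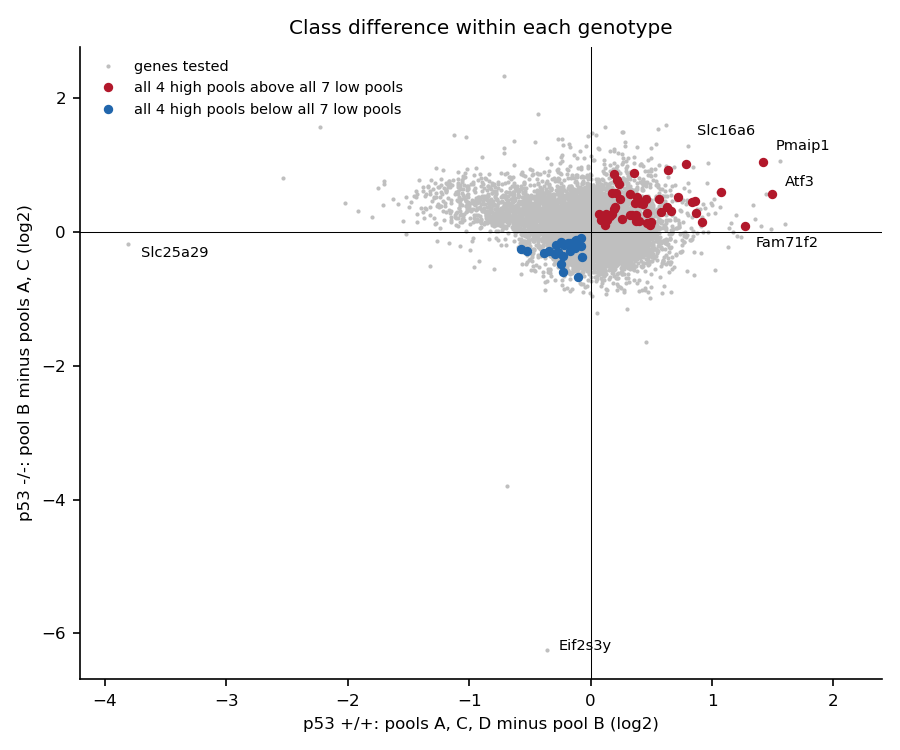
Each gene's log2 difference between high and low pools within p53 +/+ (x axis; pools A, C and D minus pool B) against that within p53 -/- (y axis; pool B minus pools A and C). The 47 genes with all high pools above all low pools (red) lie to the right of and above 0, with Pmaip1 at 1.42 and 1.04 and Slc16a6 at 0.79 and 1.02; both axes share the rule that picked the coloured genes.

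Promoter windows of the genes whose classes did not overlap were searched for the heat shock pair, as a description with no test. Of the 47 genes above, 37 had a RefSeq window and 4 of these held GAANNTTC or TTCNNGAA (10.8%), against 12.5% of the 10270 tested genes with a window. Of the 25 genes below, 18 had a window and 4 held the pair (22.2%). Hspb1 and Zfand2a were among the 4 of the 47, and Bag3 and Atf3, also of the 47, had no match in the 250 bases. Dusp8 had none either, and is not among the 47, since its brightest probe overlapped between the classes. Hsph1, whose classes overlapped, held 1 match, 54 or 33 bases before the start depending on the start used. Dnajb1 held none.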

How the data were processed

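The deposited values are linear relative intensities, 1 column per array, from the authors' value table. Per the labels' protocols, total RNA of pooled embryos was made into biotin-labelled cRNA and detected with Alexa-647 streptavidin on CodeLink arrays. Not given in the sources used here: scanner, background step, normalization and filters. The authors' control columns have 7576 to 11666 empty cells per array and the heat columns none, so only the 11 heat arrays were fitted.

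Coded cells (129 to 203 per heat array) became missing values. On each array the 5th percentile of positive values served as a floor, and log2 values were quantile normalized. Testing a probe required a level over the 40th percentile on 4 or more arrays, with at least 3 high and 5 low values. This left 22421 probes, 22419 without Hspa1a and Hspa1b. Levels in the text are these normalized values on a linear scale; class-defining Hspa1a and Hspa1b levels are as deposited. Differences came from limma 3.58.1 (R 4.3.3; lmFit, then eBayes with trend), two-sided, with Benjamini-Hochberg adjustment over all probes tested and a threshold of 0.05. The fits were tested on simulated data with differences larger than most of those reported here. Smaller differences, and noise shared between probes, were not simulated. Each gene was read from its brightest probe by mean log2 value. Symbols were taken from the platform annotation and updated through RefSeq gene IDs: 21615 of 36227 probes have 1 symbol, 681 several and 13931 none listed. The number of arrays limits the precision.

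Named genes were the 6 largest differences in each direction without overlap and with the same sign within both genotypes, the 2 members of smallest p of each list, a set of stress, p53, tissue and sex markers, and the genes past the threshold for the genotype contrast. Dusp8 (through a dimmer probe), Zfand2a, Nr4a1, Ier3, Rchy1 and a dimmer Zwint probe were named after their values were seen. The classes, members and gene lists were chosen with earlier results of these data known. Alternatives were other scalings, floors and filters, no trend, array weights, each array's top value as a covariate, a replicate block, Hspa1a as a continuous term, and leaving out pools.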

Additional observations from a re-analysis of the deposited data

Results flagged for a closer look

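A pool was marked when its gap to the nearest pool of its group of 4 relative to the group's range exceeded Dixon's 95% critical value, over 98 combinations of a gene or array measure with a heat group. Chance marks about 1 in 20 groups that were not picked by their values, and 7 were marked. Slc25a29, the Zwint probe and Rab43 were named by values that set p53 +/+ heat B apart, which favours a mark there. The rate of 1 in 20 does not hold for them. Cdkn1a was at 1.91 in p53 +/- heat D, below the other 3 p53 +/- heat pools at 4.85 to 5.35, and Phlda3 was at 4.91 in the same pool, above the others at 3.41 to 3.59. Slc25a29 was at 13.5 and the Zwint probe at 0.162 in p53 +/+ heat B, the lone low pool of its genotype. In that pool Dnaja1 was also low, at 90.5, and Rab43 high, at 1.45. Trib3 was at 0.803 in p53 +/- heat C, below the other 3 at 0.924 to 0.942.

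For 5 probes the p53 +/+ class difference minus the p53 -/- class difference passed its test, each on the log2 scale. That test has a single low p53 +/+ pool and a single high p53 -/- pool, each assumed to vary like the others. For the 3 named genes the value comes from 1 array that stood apart, and none of the 3 was called with the replicate block. The values were 5.89 for Eif2s3y, -3.62 for Slc25a29, 2.91 for the Zwint probe, and 6.22 and 4.34 for 2 probes with no symbol listed.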

How the results depend on the processing

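Of 49 gene results recomputed, 9 changed their call and 5, none of them called, changed sign: Hsph1 (-0.34 to 0.036 with 1 pool left out, above 0 without p53 +/+ D), Dnaja1 to -0.071 by median centring and as deposited, Fos to -0.102 with array weights, -0.219 with the covariate and -0.047 to 0.554 with a pool left out (below 0 without p53 -/- C), and Ccng1, -0.043 (without p53 +/+ C) to 1.114, and with the genotype term -0.728 to 0.041 (without p53 -/- B). The 2 probes called for 4 against 7 pools became 5 with array weights, 1 with each array's top value as a covariate, 1 with log2 Hspa1a as a continuous term, 0 without heterozygous pools, and 0 to 8 when 1 pool was left out (0 without p53 +/+ D, p53 +/- A or p53 +/- C, 8 without p53 -/- B). With the genotype term the count of 0 became 84 without p53 +/+ B, 82 of them lower, and 3 without p53 -/- B, a leave-out range of 0 to 84. The 5 probes that differed between genotypes became 3 with the floor at the 20th percentile, 3 with no filter on dim probes, 3 with the covariate, 1 with all arrays above the 40th percentile, and 2 to 4 when a pool was left out; without p53 +/+ B or p53 -/- B this contrast could not be fitted. The 47 genes above became 269 without heterozygous pools and 54 to 192 with a pool left out, and 24 of the 38 found by median centring and 23 of the 34 in values as deposited were among the 47. The 25 genes below became 41 by median centring, 40 as deposited, 204 without heterozygous pools and 36 to 241 with a pool left out. Leaving out pools makes non-overlap easier to reach. The cause of the other shifts was not tested. The median over all genes was itself -0.092 by median centring and -0.093 as deposited, against -0.025 with quantile normalization.

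Same-letter residuals correlated at -0.327 to 0.68 over 10 pairs and other-letter residuals at -0.671 to 0.721 over 30. These ranges overlap and cannot show whether letters A to D pair the pools. With the replicate block 0 probes were called for 4 against 7 pools (Dusp8 1.48, adjusted p = 0.185), 0 with the genotype term and 1 for the genotype contrast.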
